A study of Mus musculus with 2 samples.

Results

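The mu-class glutathione S-transferases of mouse liver were taken from the deposited table by their symbols, Gstm1 to Gstm7, and all 7 were among its 15348 gene symbols. The family was chosen by symbol, but with the ratios of these libraries in view, so the values describe the genes and support nothing further. Levels were compared between a pool of OTD-treated livers and a pool of control livers, copy by copy and summed. The treated livers came from female NOG-TKm30 mice aged 16 weeks. They received the aromatic amine ortho-toluidine (OTD), used in dye manufacture, first at 0.6% (1 week) and then at 0.3% (3 weeks), 4 weeks in all. The control livers came from female NOG-TKm30 mice aged 16 weeks given 0% OTD over the same 4 weeks. Both groups carry the NOG background, which is immunodeficient, and a mutant (clone 30) of the herpes simplex virus thymidine kinase HSVtk, driven by enhancer and promoter of the mouse transthyretin gene. The protocol field of the labels calls the mice C57BL, while titles, strain label and design text call them NOG-TKm30. Material from 5 OTD mice made up 1 library and that from 3 control mice the other, so there was 1 library a group, no replicate, and no test across animals.

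Mu-class enzymes are cytosolic dimers that join reduced glutathione to electrophilic compounds. The conjugates leave the hepatocyte through export pumps and are trimmed and acetylated to mercapturic acids. In mouse the genes lie side by side, and receptors and factors that answer to foreign compounds and oxidative stress, such as CAR and NRF2, are known to raise several of them. The numbering of mouse mu-class genes does not correspond to that of the human genes.

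The 7 genes occupied a cluster of 149.1 kb on chromosome 3, from 107895821 to 108044894 in GRCm38 (the mm10 assembly), and all are annotated as protein-coding. Gstm5 opens the cluster at 107895821 to 107898686 on the plus strand. The other 6 lie on the minus strand, in the order Gstm7 (107926334 to 107931817), Gstm6 (107938847 to 107943749), Gstm3 (107963696 to 107969283), Gstm2 (107981702 to 107986453), Gstm1 (108012255 to 108017973) and Gstm4 (108040408 to 108044894). The longest coding transcript of each gene had 8 exons. The coding part had 218 codons in 5 members, 224 in Gstm5 and 232 in Gstm6.

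Because the members are copies of each other, the first 60 coding bases of Gstm1 are shown with the bases aligned to them in the other members, 5′ to 3′, from GENCODE transcripts. Capitals mark each base that differs from Gstm1. In Gstm5 the aligned stretch starts at coding base 10, and in the others at coding base 1.
Gstm1: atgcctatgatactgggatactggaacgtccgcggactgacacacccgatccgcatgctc
Gstm2: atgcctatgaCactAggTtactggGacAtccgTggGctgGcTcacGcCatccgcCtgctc
Gstm3: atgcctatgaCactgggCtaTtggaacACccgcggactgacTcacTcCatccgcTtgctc
Gstm4: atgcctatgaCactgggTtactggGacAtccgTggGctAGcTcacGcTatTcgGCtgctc
Gstm5: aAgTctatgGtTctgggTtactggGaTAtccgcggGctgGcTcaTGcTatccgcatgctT
Gstm6: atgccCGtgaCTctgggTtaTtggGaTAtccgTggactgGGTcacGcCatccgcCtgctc
Gstm7: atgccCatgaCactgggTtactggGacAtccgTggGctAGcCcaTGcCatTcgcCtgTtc
Gstm3 differed from Gstm1 at 9 of these 60 bases and Gstm2 at 12, whereas Gstm6 and Gstm7 differed at 16 each. Over the whole coding sequence Gstm1 and Gstm3 were the closest pair, with 89.4% identical bases. Gstm5 stood farthest from the rest, with 69.7% identity to Gstm3 and 72.7% to Gstm6 as its lowest and highest values.

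Mu-class RNA was higher in the OTD pool as a whole and, beyond counting error, in 6 of the 7 copies, by unequal amounts. For Gstm5 only the ratio itself lay above 1. Gstm3 had the highest ratio of OTD over control, 4.03, and Gstm7 the lowest, 1.13. The summed level of the 7 genes was 2886 in the OTD pool and 1589 in the control pool, a ratio of 1.82 (95% counting interval 1.79 to 1.85). Levels are read counts relative to the library's total reads (CPM), as scaled by the authors (scaled CPM). The intervals are exact Clopper-Pearson intervals on how a gene's reads split between the libraries, so they cover counting error only and not variation between mice, pools or library preparations. In bulk liver, a change in the share of cells that express a gene and a change in RNA per cell cannot be told apart.

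Of the 7 members, 6 had a mean of both libraries of at least 10 and were called measured. Of these 6, only Gstm3 was at least 2-fold higher on the scale log2(level + 1), beside 0.21% of all 7602 measured genes (16 genes). At 1.5-fold the count was 3 (Gstm1, Gstm2 and Gstm3), beside 1.51% of measured genes. The counting interval lay above 1 for 6 of the 7 members, Gstm5 excepted, beside 18.6% of measured genes. The ratio itself was above 1 for all 7, beside 48.4% of measured genes, and an interval below 1 was found for 0 of the 7, beside 19.6%. The median log2 ratio was 0.60 over the 6 measured members, 0.56 over all 7 and −0.0063 over all measured genes.

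**Figure D1:**
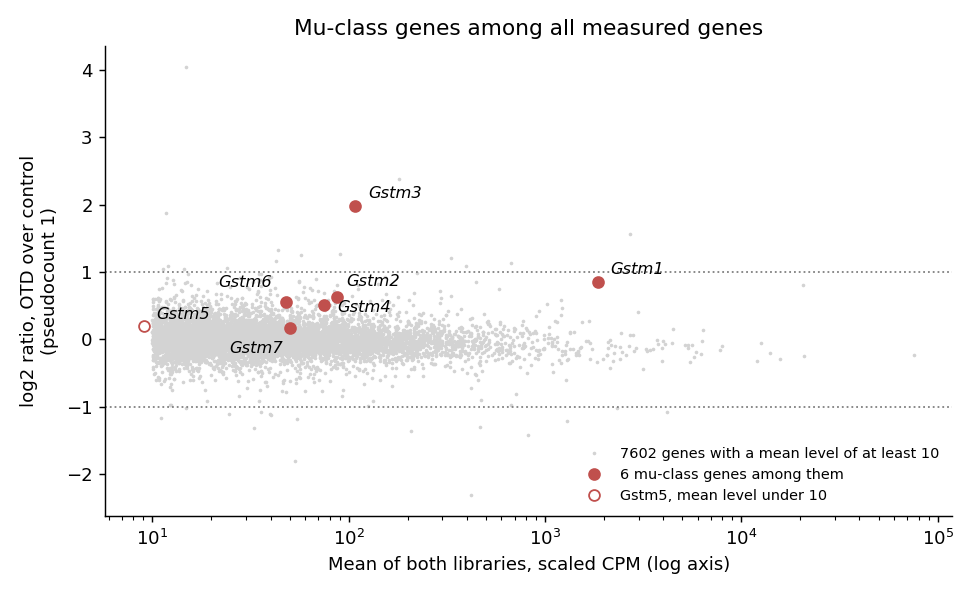
Log2 ratio of OTD over control (pseudocount 1) against the mean level of both libraries in scaled CPM, on a log axis, for all measured genes (grey) and the mu-class genes (red; Gstm5, under the minimum mean of 10, is open). Dotted lines mark 2-fold. Gstm3, at 1.98, lies above the upper line, and Gstm1, at 0.86, has by far the highest mean level of the members.

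Gstm1, the main mu-class transferase transcript of these livers, had a level of 2397 in the OTD pool and 1321 in the control pool, from 35888 and 17587 reads. Its ratio was 1.81 (1.78 to 1.85), and its log2 ratio with the pseudocount of 1 had rank 31 of the 7602 measured genes. It held 83.1% (82.7% to 83.4%, exact binomial interval) of mu-class reads in the OTD pool and 83.2% (82.7% to 83.7%) in the control pool. The intervals of its 2 shares overlapped, while the interval of its level ratio lay above 1. Gstm1 supplied 82.9% of the summed difference of 1298 between the pools.

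Gstm3, which encodes a mu-class transferase close to Gstm1 in sequence, had a level of 173.3 in the OTD pool and 43.0 in the control pool, from 2594 and 573 reads. The ratio was 4.03 (3.68 to 4.41), and its log2 ratio with the pseudocount of 1 was the third highest of all measured genes. Its share of mu-class reads was 6.003% (5.78% to 6.23%) in the OTD pool, against 2.71% (2.495% to 2.94%) in the control pool. It supplied 10.03% of the summed difference.

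Gstm2 had a level of 106.4 in the OTD pool and 68.1 in the control pool, a ratio of 1.56 (1.44 to 1.70). Gstm6 had 57.5 in the OTD pool and 38.6 in the control pool, a ratio of 1.49 (1.33 to 1.66). Gstm4 had 88.6 in the OTD pool and 61.8 in the control pool, a ratio of 1.43 (1.31 to 1.57). All 3 encode further mu-class transferases, and their intervals overlapped one another. The share of mu-class reads was lower in the OTD pool for each of them, at 3.69% against 4.28% in the control pool for Gstm2, 1.99% against 2.43% for Gstm6 and 3.07% against 3.89% for Gstm4, without overlap of the exact binomial intervals.

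Gstm7 had a level of 53.6 in the OTD pool and 47.4 in the control pool. Its ratio was 1.13 (1.02 to 1.26), with an interval that did not reach that of Gstm4, and its log2 ratio with the pseudocount of 1 had rank 1396 of the measured genes. It held 1.86% of mu-class reads in the OTD pool and 2.98% in the control pool. Gstm5, the mouse member known from testis and brain, was near the lower edge of measurement, with 9.75 in the OTD pool and 8.34 in the control pool (146 and 111 reads). With a mean of 9.05 it fell just short of the minimum of 10. Its ratio of 1.17 had an interval of 0.907 to 1.51, so a difference was not detectable at this depth. An antisense gene model, 4933431E20Rik, overlaps the start of Gstm5 and had levels of 4.61 in the OTD pool and 2.48 in the control pool. The library kit keeps strand, but the use of strand in counting is not given in the sources used here, so reads from this overlap cannot be told apart.

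**Figure D2:**
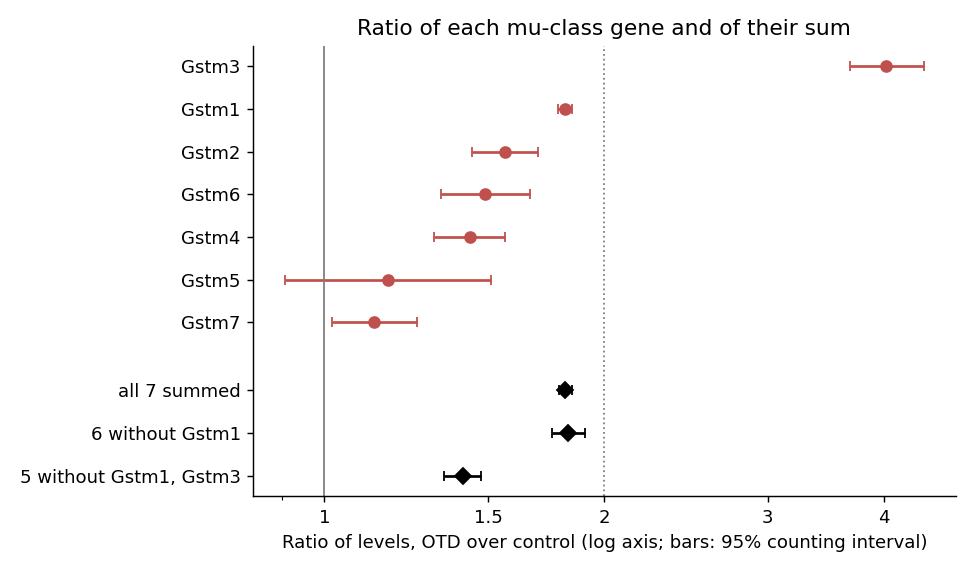
Ratio of levels, OTD over control, on a log axis, for each mu-class gene (red circles, ordered by ratio) and for their sums (black diamonds), with 95% counting intervals; the dotted line marks 2-fold. Gstm3 stands apart at 4.03, Gstm1 at 1.81 lies at the ratio of the sum, and the interval of Gstm5 includes 1.

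In the order of ratios, Gstm3 lay above Gstm1 and Gstm1 above Gstm2 without overlap of the counting intervals. From Gstm2 down through Gstm6, Gstm4, Gstm5 and Gstm7, each neighbour's interval overlapped the next. The sum without Gstm1 gave nearly the same ratio as the sum of all 7, 1.83 (1.76 to 1.91), with 489.2 in the OTD pool and 267.3 in the control pool. When Gstm3 was also left out, the 5 remaining members summed to 316.0 in the OTD pool and 224.3 in the control pool, a ratio of 1.41 (1.35 to 1.48).

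Per kilobase of the longest coding transcript, which allows levels of different genes to be compared, Gstm1 led in both pools. It stood at 1860 scaled CPM per kb in the OTD pool and 1025 in the control pool. Gstm3 was second in the OTD pool at 132.2, above Gstm2 at 100.01, and had rank 5 in the control pool at 32.8, below Gstm2 at 64.0. In the OTD pool the further order was Gstm4, Gstm6, Gstm7 and Gstm5, and Gstm4 (51.9) and Gstm6 (48.8) did not differ beyond counting error. In the control pool Gstm4 (36.2), Gstm7 (34.4), Gstm3 (32.8) and Gstm6 (32.8) followed each other with overlapping intervals. Gstm5 was last in both pools, at 10.3 in the OTD pool and 8.82 in the control pool.

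**Figure D3:**
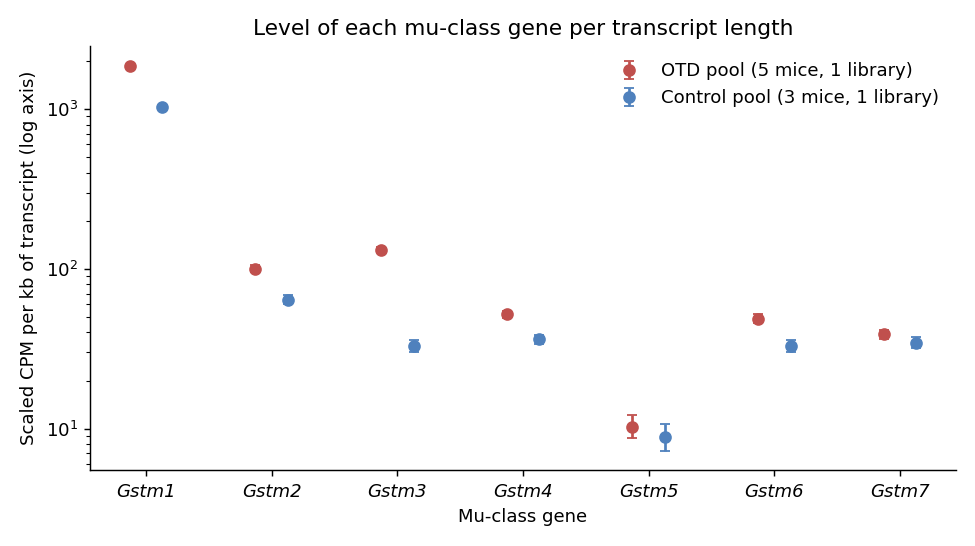
Level of each mu-class gene per kilobase of its longest coding transcript, in scaled CPM per kb on a log axis, in the OTD pool (red) and the control pool (blue), each 1 library, with 95% Poisson counting intervals. Gstm1 lies above all other members in both pools. Gstm3 shows the widest gap between the pools on the log axis, with 132.2 in the OTD pool and 32.8 in the control pool.

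How far reads can be exchanged between the copies was measured on the annotated transcripts. Of the 50-base stretches of Gstm3, 15.8% also occur in another mu-class gene, in Gstm1 (9.83%) or in Gstm6 (6.02%), with a longest common run of 125 bases. For Gstm1 the share was 10.9%, for Gstm6 6.73% and for Gstm2 1.08%, while Gstm4, Gstm5 and Gstm7 had 0 such stretches. Stretches of Gstm1, Gstm2, Gstm3 and Gstm6 also occur in 5 further gene models and pseudogenes. None of these 5 was among the gene symbols of the deposited table, so no level can be given for them. The share found there was 22.5% for Gstm1, 24.0% for Gstm3, 9.36% for Gstm2 and 6.90% for Gstm6. Of the stretches of Gstm3, 71.2% occur in no other gene at all, and of Gstm1 76.9%. The ratio of a member with shared stretches is therefore less certain than its counting interval. An exchange among members leaves the sum as it is, but one with the 5 further models would change the sum. The 4 members with shared stretches summed to a ratio of 1.86 (1.83 to 1.89). The 3 members with none summed to 152.0 in the OTD pool and 117.6 in the control pool, a ratio of 1.29 (1.21 to 1.38). The part of read sharing in this difference was not tested.

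Along the chromosome, the ratio was highest at Gstm3, in the middle of the cluster, and did not fall steadily from there to the ends. Reading from the plus-strand end, ratios were 1.17 at Gstm5, 1.13 at Gstm7, 1.49 at Gstm6, 4.03 at Gstm3, 1.56 at Gstm2, 1.81 at Gstm1 and 1.43 at Gstm4. Of the 3 nearest protein-coding genes beyond Gstm4, Ampd2, which encodes an AMP deaminase, had 34.4 in the OTD pool and 23.9 in the control pool, a ratio of 1.44 (1.25 to 1.66). Gnai3, an inhibitory G protein alpha subunit, had a ratio of 0.999 (0.930 to 1.07), and Gnat2 was near 0 with 10 and 7 reads in the OTD and control pools. Beyond Gstm5, Csf1, which encodes a macrophage growth factor, had a ratio of 0.904 (0.734 to 1.11) and Ahcyl1 of 0.994 (0.928 to 1.06). Eps8l3, the nearest protein-coding gene on that side, was not among the gene symbols of the deposited table.

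**Figure D4:**
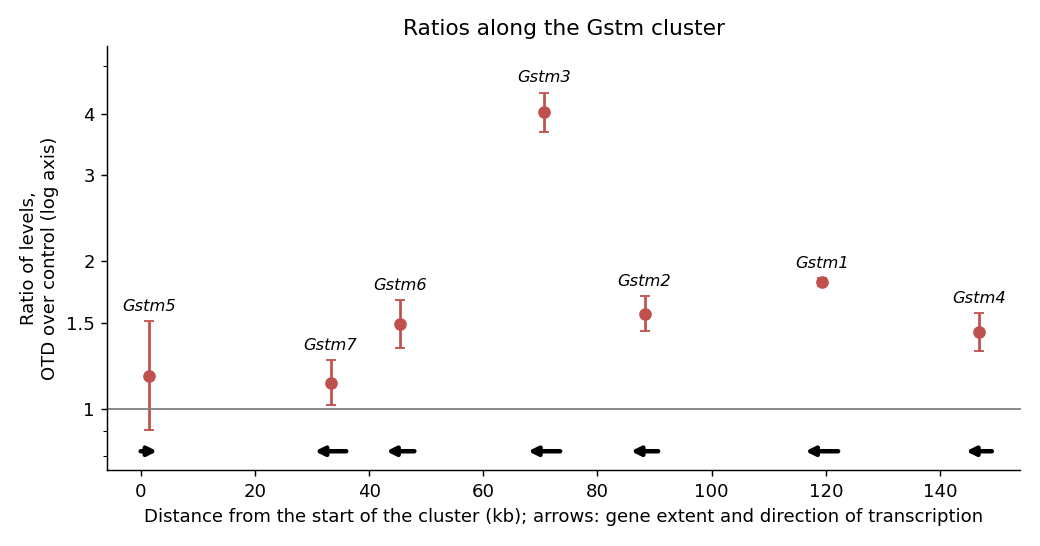
Ratio of levels, OTD over control (log axis, with 95% counting intervals), against the distance from the start of the Gstm cluster in kb; arrows show the extent and direction of transcription of each gene. Gstm3, near the middle, stands at 4.03, and Gstm7, toward the Gstm5 end, at 1.13.

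The stretches around the annotated starts were searched for short motifs. RefSeq promoters of GRCm38.p6 (250 bases before to 50 after a start) matched all 7 members, some with several starts. The motifs, on either strand, were TGACNNNGC (core of the antioxidant response element bound by NRF2, in 12.4% of all promoters of this length), GCGTG (core bound by AhR, 32.4%), TATAAA (a core promoter box, 13.6%) and the nuclear receptor half-sites AGGTCA (16.3%) and AGTTCA (14.0%). Shown 5′ to 3′ on the minus strand are the second listed start of Gstm1, chr3:108017769-108018068, and the start of Gstm3, chr3:107969125-107969424, as the members with the highest ratios. They are followed on the plus strand by Gstm5, chr3:107895604-107895903, as a member with a low ratio (1.17, 0.907 to 1.51). Gstm5 was below the minimum mean, and the lowest ratio was that of Gstm7. Capitals mark motif matches, which overlap in Gstm5 (TGACNNNGC with GCGTG).
Gstm1: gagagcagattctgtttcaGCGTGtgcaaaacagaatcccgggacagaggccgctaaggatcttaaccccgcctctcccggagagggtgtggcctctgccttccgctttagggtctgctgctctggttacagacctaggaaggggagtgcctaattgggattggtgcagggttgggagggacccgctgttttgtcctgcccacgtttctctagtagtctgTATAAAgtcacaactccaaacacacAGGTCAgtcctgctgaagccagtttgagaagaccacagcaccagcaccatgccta
Gstm3: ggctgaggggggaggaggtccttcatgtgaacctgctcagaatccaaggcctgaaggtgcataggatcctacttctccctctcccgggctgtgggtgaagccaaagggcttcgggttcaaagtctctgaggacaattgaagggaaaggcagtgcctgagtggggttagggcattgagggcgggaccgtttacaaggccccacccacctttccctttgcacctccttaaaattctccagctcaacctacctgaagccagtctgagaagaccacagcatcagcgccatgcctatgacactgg
Gstm5: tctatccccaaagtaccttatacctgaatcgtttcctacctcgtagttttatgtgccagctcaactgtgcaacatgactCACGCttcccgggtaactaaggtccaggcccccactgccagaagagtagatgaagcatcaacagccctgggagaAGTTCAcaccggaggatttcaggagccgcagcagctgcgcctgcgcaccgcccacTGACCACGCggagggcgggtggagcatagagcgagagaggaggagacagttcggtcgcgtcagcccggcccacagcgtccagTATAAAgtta
The Gstm1 stretch held GCGTG once, TATAAA once and AGGTCA once, and the Gstm3 stretch held 0 matches. The Gstm5 stretch held TGACNNNGC once, GCGTG at 2 places, TATAAA once and AGTTCA once. The window of the other listed start of Gstm1 overlaps the one shown and held the same GCGTG site, but 0 matches to TATAAA and 0 to AGGTCA. That other start is the one at the GENCODE start of the longest coding transcript, and the start shown lies 155 bases from it. The windows of Gstm7 held TGACNNNGC once and TATAAA once, and the windows of Gstm2, Gstm4 and Gstm6 held 0 matches to any of the motifs. A match describes letters in these windows and not a bound site, and sites outside the windows were not searched. Any link between these motifs and the ratios was not tested.

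Genes that work before, beside and after the mu-class enzymes were read from fixed lists. Other glutathione transferases, of the alpha, pi, theta, omega, zeta, kappa and microsomal classes, had 12 measured genes of 20 listed. Of these, 2 passed 1.5-fold upward in the OTD pool and 0 downward (background 1.51% and 0.908% of measured genes), with a median log2 ratio of 0.078. They were the alpha-class Gsta2, with 46.3 in the OTD pool and 23.2 in the control pool, and the pi-class Gstp1, with 355.0 in the OTD pool and 232.6 in the control pool (ratio 1.53, 1.46 to 1.60). The theta-class Gstt3 had a ratio of 1.49 (1.40 to 1.60), and the microsomal Mgst1 one of 0.988 (0.970 to 1.01). Of the 12 log2 ratios, 8 lay above 0 and 4 below, beside 48.4% of all measured genes with a ratio above 1. Gsto1 (0.865, 0.806 to 0.928) and Gstk1 (0.920, 0.849 to 0.997), named after their values were seen, had intervals below 1. Summed over the 16 listed genes in the table, these transferases had 4699 in the OTD pool and 4203 in the control pool, a ratio of 1.12, against 1.82 for the mu class.

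Glutathione synthesis and recycling genes had 9 measured members of 15 and a median log2 ratio of 0.21. Of the 9, 0 passed 1.5-fold upward and 0 downward, beside 1.51% and 0.908% of measured genes. Gclc, the catalytic subunit of the rate-limiting enzyme of glutathione synthesis, had 456.2 in the OTD pool and 369.9 in the control pool (ratio 1.23, 1.19 to 1.28). Gsr, which regenerates reduced glutathione, had a ratio of 1.26 (1.15 to 1.37), and Ggt6, of the gamma-glutamyltransferase family, one of 1.42 (1.13 to 1.78) at a level of 14.0 in the OTD pool and 9.84 in the control pool. Cbs, an enzyme on the way to cysteine, had a ratio of 1.01 (0.975 to 1.04). Of the 9 log2 ratios, 6 lay above 0 and 3 below, beside 48.4% of all measured genes with a ratio above 1. Oplah (0.878, 0.828 to 0.931), named after its value was seen, had an interval below 1.

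Genes for conjugate export and mercapturate formation had 8 measured members of 19 and a median log2 ratio of 0.025. The efflux pump gene Abcc4 was the only measured member past 1.5-fold upward, and 0 passed it downward, beside 1.51% and 0.908% of measured genes. Abcc4 had 32.8 in the OTD pool and 15.2 in the control pool. Abcc3, a basolateral pump, had a ratio of 1.18 (1.14 to 1.21) and the aminoacylase Acy1 one of 1.17 (1.04 to 1.32). The 8 measured members divided evenly, with 4 log2 ratios above 0 and 4 below, near the 48.4% of all measured genes with a ratio above 1. The canalicular pump gene Abcc2 had a ratio of 0.911 (0.883 to 0.939), the aminopeptidase gene Anpep 0.912 (0.866 to 0.961) and Abcc6 0.921 (0.876 to 0.969), all with intervals below 1.

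Among NRF2 targets outside the mu class, 7 of 25 measured genes passed 1.5-fold upward and 0 downward, beside 1.51% and 0.908% of all measured genes, with a median log2 ratio of 0.28. The 3 largest log2 ratios of measured members were those of Abcc4, of Gsta2 and of the carboxylesterase gene Ces1g, with 296.9 in the OTD pool and 148.7 in the control pool (ratio 1.997, 1.89 to 2.11). The most abundant of the list, the ferritin light chain gene Ftl1, had a ratio of 1.04 (1.03 to 1.06). For CAR and PXR targets the median was 0.27, and 6 of 18 passed 1.5-fold upward and 0 downward, beside the same 1.51% and 0.908%. The P450 genes Cyp2b10 and Cyp2c29 had ratios of 5.29 (4.90 to 5.71) and 2.97 (2.92 to 3.02), and the aldehyde dehydrogenase gene Aldh1a7 one of 1.91 (1.79 to 2.03). The P450 gene Cyp3a11, the most abundant of that list, had 1.11 (1.10 to 1.13), and the P450 reductase gene Por, named after its value was seen, 0.722 (0.698 to 0.747). Of the 18 log2 ratios of CAR and PXR targets, 12 lay above 0 and 6 below, beside 48.4% of all measured genes with a ratio above 1. Besides Por, intervals below 1 were those of Alas1 (0.839, 0.794 to 0.886), Cyp2b9 (0.909, 0.882 to 0.936), Abcc2 and Ugt1a1 (0.947, 0.920 to 0.974). They too were named after their values were seen. These lists overlap each other and were drawn up with earlier results of these libraries known.

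**Figure D5:**
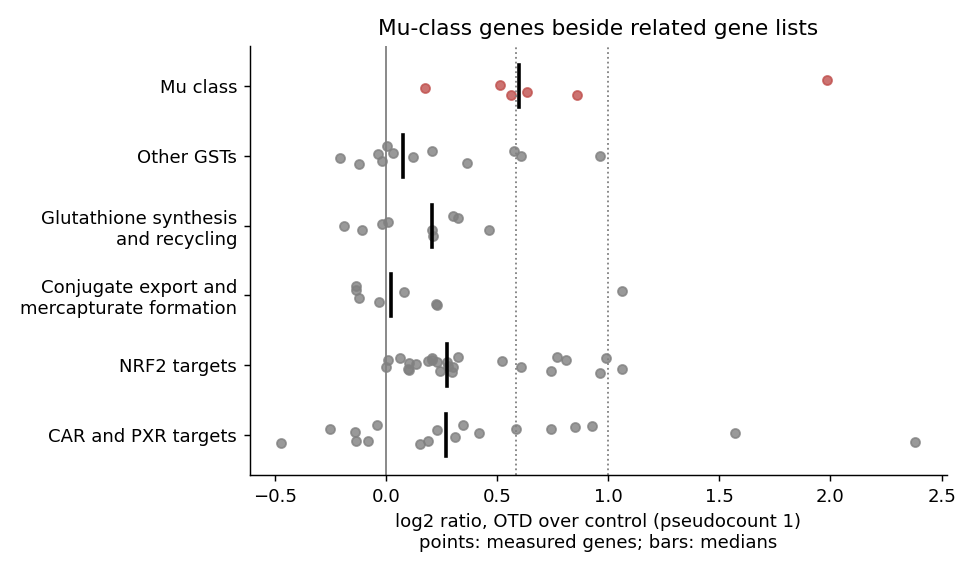
Log2 ratio of OTD over control (pseudocount 1) for each measured mu-class gene (red) and for measured genes of the related lists (grey), with black bars at list medians; dotted lines mark 1.5-fold and 2-fold. The mu-class median is 0.60 and the list medians lie between 0.025 and 0.28.

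The libraries held 14685193 reads (OTD) and 13569189 reads (control) in the table. Liver identity was seen in Alb and 10 further hepatocyte core genes, all measured, of which 2 had higher and 9 lower levels in the OTD pool. Their summed level was 0.885 times that of control. Pericentral hepatocyte markers summed to 0.819 times control, with 8 of 10 measured genes lower, and periportal ones to 0.944 times, with 8 of 10 lower. Over the whole table, 3921 of the 7602 measured genes were lower. Most of the pericentral sum was Cyp2e1, with 4858 in the OTD pool and 6152 in the control pool. The 2 measured pericentral genes that were higher were Cyp1a2 (ratio 1.17, 1.13 to 1.21) and Rhbg (1.09, 0.864 to 1.37). Sums of Kupffer cell, endothelial, stellate and cholangiocyte markers were 0.931, 0.961, 0.957 and 1.07 times control, and that of erythroid genes was 1.25 times control. Within these last 2 sums the widest gaps in level were those of Prom1 and of Hba-a2. Prom1 had 16.8 in the OTD pool and 9.02 in the control pool. For Hba-a2 the levels were 142.2 in the OTD pool and 80.6 in the control pool. The cholangiocyte genes Sox9 and Spp1 had ratios of 0.824 and 0.941, and the erythroid genes Hba-a1, Alas2 and Hbb-bt 1.07, 1.06 and 1.054. No listed marker with a row was at 0 in either pool. Scaling to the same total without the ribosomal RNA precursor Rn45s multiplies every ratio by 1.052, which puts the endothelial and stellate sums above control. The part of these shifts in the mu-class ratios was not tested.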

How the data were processed

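Liver RNA was sequenced after ribosomal RNA depletion with a directional kit, from 200 ng of total RNA, per the labels' protocols. The deposited table gives 1 normalized signal per gene symbol and library, which the authors derived from read counts. Trimmomatic 0.38, Bowtie2, RSEM, edgeR and mm10 are named in the submitters' processing notes, with no role or order. Neither the annotation release, nor a gene filter, nor the handling of strand is stated in the sources used here. Dividing each column by its smallest non-zero value gave whole reads for 100% of genes (tolerance 1e-06). With 1 library a group no residual degrees of freedom remain, so a count test could not be fitted. Columns were assigned by Ctrl and OTD in their names; the word Wild in them is unexplained.

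Ratios were computed without a pseudocount, with 95% exact intervals that cover counting error only, and log2 ratios with a pseudocount of 1, which understates low genes. Genes with a mean of at least 10 were called measured. A count of 3 reads equals a level of 0.200 in the OTD pool and 0.225 in the control pool. GENCODE M21 matched 96.0% of symbols. Named genes were the 7 members, the 3 nearest coding genes on each side and, per list, the 3 largest ratios and the highest level. Some further list genes were named after their values were seen. Members and lists were chosen with earlier results of these data known. Alternatives were other scalings, pseudocounts, filters and folds. Biopython 1.88, scipy 1.17.1, numpy 2.4.6, pandas 2.3.3 and matplotlib 3.10.9 ran under Python 3.11.15, and the steps were tested on simulated data.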

Additional observations from a re-analysis of the deposited data

How the results depend on the processing

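The ratio of all 7 members stayed above 1 (for Gstm5 with a counting interval that includes 1) under the scalings and pseudocounts tried, and 39 of 42 values for single members stayed within the counting interval. The others were Gstm1 at 0.91 and 0.93 on the log2 scale (same total, and same total without the ribosomal RNA precursor Rn45s, which took 2.66% of OTD and 1.47% of control reads) and Gstm3 at 1.79 (pseudocount 10). The log2 ratio of the sum, 0.86, became 0.92 at the same total, 0.93 without Rn45s and 0.49 without Gstm1 and Gstm3. At 1.5-fold 3 members were counted in place of 1. The 16 higher and 16 lower genes of the whole table became 8 and 9 with the minimum mean set to 50 and 44 and 26 with no filter, as 2884 and 15348 genes entered in place of 7602. Over the same 7602 genes, a threshold of 1.5-fold gave 115 higher and 69 lower, one of 3-fold gave 4 higher and 2 lower, and a pseudocount of 10, which draws low genes toward a ratio of 1, gave 10 lower. With that minimum of 50 the counts of genes at least 1.5-fold higher became 1 for other transferases, 0 for export and mercapturate genes and 4 for NRF2 targets, and without a filter 4 for other transferases. Without a filter the median of glutathione synthesis genes turned to −0.011 and that of export genes to −0.024, and with the minimum of 50 the export list had −0.12. No paired analysis was possible because each group had 1 library. Depth limits Gstm5 most, with 146 reads in the OTD pool and 111 in the control pool.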

Other observations

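By the size of the ratio over these 2 libraries, the genes most like Gstm1 out of 1454 non-member genes averaging 100 or more were Cyp2a5, a P450 of coumarin hydroxylation, the water channel gene Aqp8 and the alpha-globin gene Hba-a2. Their log2 ratios differed from that of Gstm1 by 0.0055, 0.037 and 0.048. Cyp2a5 had 574.2 in the OTD pool and 317.3 in the control pool, and Aqp8 had 180.0 in the OTD pool and 101.4 in the control pool. Hba-a2 had 142.2 in the OTD pool and 80.6 in the control pool. The genes nearest to Gstm3 were farther away, with Cyp2b10 at a difference of 0.40, Cyp2c29 at 0.41 and the lipogenic gene Acly at 0.78. With 1 ratio per gene, many genes with unrelated roles can share a value.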
